A study of Homo sapiens with 6 samples.

Results

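A set of 10 genes that cells use to restrain or transmit signalling through the extracellular signal-regulated kinase (ERK) were followed in 12Z cells, an established human epithelial line from endometriosis: the phosphatase genes DUSP4, DUSP5 and DUSP6, the Sprouty genes SPRY2 and SPRY4, the Spred genes SPRED1 and SPRED2, and the ETS transcription factor genes ETV1, ETV4 and ETV5. They were chosen by symbol, as genes known to be induced by ERK signalling, with earlier results of these data known. They are 10 of the 62696 genes in the count tables. All 10 passed the filter on low counts, which kept 18569 genes. The design compared 2 groups of 3 libraries, harvested 72 h after transfection: a control siRNA from Ambion in one group, and 1 siRNA directed at the long non-coding RNA LINC01638 (labelled LINC01638_2) in the other. In each group the replicates are lettered A to C, and values per library are given here in that order. Both groups were grown with fetal calf serum and transfected with Lipofectamine RNAiMAX. All libraries come from 1 cell line and 1 siRNA to the target, and the labels do not say that replicates were separate cultures, so the p-values cover only the variation among these libraries, part or all of which may be technical.

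ERK is the last kinase of a cascade in which growth factor receptors activate RAS, RAF and MEK. Active ERK switches on genes whose products turn the cascade down at several steps: dual-specificity phosphatases remove phosphate from ERK itself, Sprouty proteins act between receptor and RAF, and Spred proteins bring the RAS inactivator neurofibromin to the membrane. ETV1, ETV4 and ETV5, the PEA3 group of ETS factors, carry the signal onward to further genes, and the repressor capicua (CIC) holds several of these genes down until ERK inactivates it.

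With LINC01638 siRNA, 7 of the 10 genes rose, 1 fell and 2 did not pass the test. The ETS factor genes ETV1, ETV4 and ETV5, the Spred genes SPRED1 and SPRED2, SPRY4 and DUSP6 rose between 1.53-fold (ETV1) and 2.65-fold (DUSP6). DUSP4 fell 1.34-fold, and DUSP5 and SPRY2 differed by less than the spread between replicates. These counts are to be read against the many other genes that moved in the same comparison: 56.0% of all genes tested were called at the 0.05 threshold (edgeR, adjusted p), 26.3% as higher (4887 genes) and 29.6% as lower (5503 genes). With libraries scaled by their totals alone the split was 6349 higher and 4288 lower, and the median log2 fold change of all genes lay 0.10 higher, while the calls for the 10 genes were as before. A rise of at least 1.5-fold, seen in 7 of the 10, was called in 10.9% of all genes, and one of at least 2-fold, seen in DUSP6, ETV4 and ETV5, in 5.35%. The median log2 fold change of the 10 genes was 0.76, beside -0.00142 over all genes tested. Since the 10 genes were chosen with earlier results of these data known, these shares and medians are no test of the set.

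**Figure D1:**
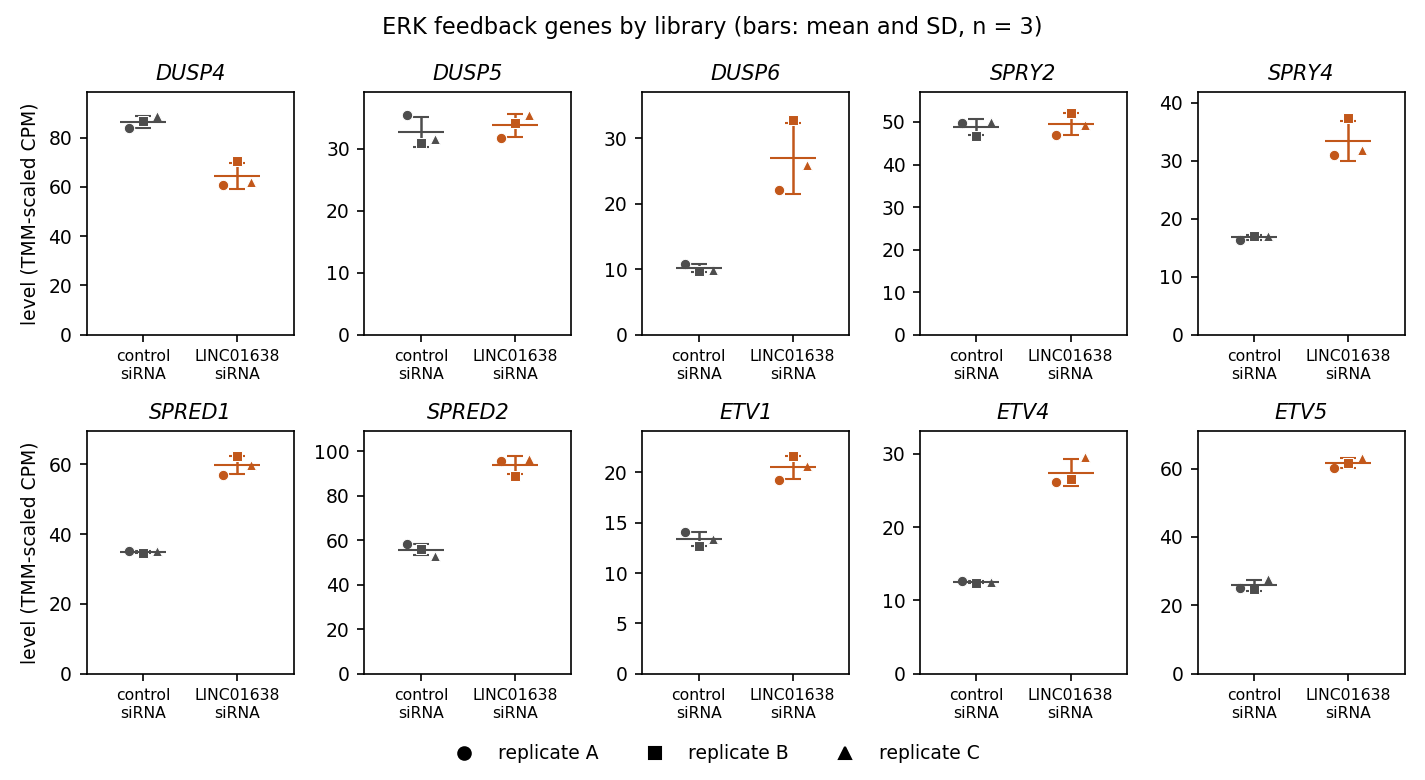
Level of each of the 10 genes in every library, in CPM, the count relative to the library size after TMM scaling (y axis from 0, with its own range in each panel), with control siRNA in grey and LINC01638 siRNA in orange. Symbols mark replicates A, B and C, and bars give the mean and SD (n = 3). For 7 genes every LINC01638 siRNA library lies above every control library, for DUSP4 every one lies below, and for DUSP5 and SPRY2 the groups overlap.

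Sequence upstream of the transcription start was available for 6 of the 10 genes (DUSP6, SPRY2, SPRY4, SPRED1, SPRED2 and ETV1) in 14 RefSeq windows on GRCh38.p14, each running from 250 bases before a start to 50 bases after it. They were searched on both strands for 2 octamers that CIC is known to bind, TGAATGAA and TGAATGGA. The core TGAATG that both octamers contain, the ETS word CCGGAAGT and the AP-1 word TGACTCA were searched for as well. Other octamers that CIC may bind were not searched for. TGAATGGA was in 1 of the 14 windows, at the most upstream start of ETV1, and in 1.03% of all 35116 windows. TGAATGAA was in 0 of the 14 and in 1.65% of all. The core was in 3 of the 14, one each of DUSP6, ETV1 and SPRED2, and in 11.8% of all windows. CCGGAAGT was in 0 of the 14 (4.14% of all), and TGACTCA in 1, the same SPRED2 window (4.95% of all). The windows were unevenly spread: ETV1 had 6, SPRY2 3, SPRED2 2 and the other genes 1 each. The genes with the core all rose, as did every gene with windows except SPRY2, so the match does not set them apart. A match describes these letters and shows no binding. The 3 stretches that hold the core are aligned here on TGAATG (in capitals), 5′ to 3′ on the strand of the gene.
DUSP6: tttccgtttttgTGAATGacaaactcatta
ETV1: gccggaattttgTGAATGgagacgaaaggt
SPRED2: gaagcaggatgtTGAATGtgagtaatgaca

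These lie at chr12:89352617-89352646, chr7:13991533-13991562 and chr2:65366819-65366848, all on the minus strand of GRCh38.p14. The DUSP6 stretch falls within an exon of a longer annotated DUSP6 transcript, the ETV1 stretch lies outside the annotated exons of its gene, and the SPRED2 stretch lies upstream of an internal start within the gene. In the ETV1 stretch the core is followed by the letters of a full octamer, which is shown in capitals in the 250 bases before the most upstream start (chr7:13991426-13991675, minus strand).
ETV1: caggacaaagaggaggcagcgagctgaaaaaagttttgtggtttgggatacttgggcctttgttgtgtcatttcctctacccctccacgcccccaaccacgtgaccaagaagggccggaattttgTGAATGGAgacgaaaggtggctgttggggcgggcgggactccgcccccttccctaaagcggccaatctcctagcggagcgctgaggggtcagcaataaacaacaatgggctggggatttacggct

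The libraries held between 45617234 and 58148664 counts assigned to genes, and a count of one of the 10 genes ranged from 426 (DUSP6) to 5806 (SPRED2). LINC01638 itself (ENSG00000233521.8, chromosome 22) had 407, 334 and 414 counts with control siRNA and 125, 103 and 123 with the siRNA against it. It fell by 1.87 on the log2 scale (SE 0.111, edgeR adjusted p = 3.73e-11). Keratin genes were abundant in these cells (KRT8 at 2604 ± 106 CPM in control libraries), whereas the epithelial markers EPCAM (0.377 ± 0.0682 CPM) and CDH1 (8.14 ± 0.806 CPM) were low and the stromal marker COL1A1 stood at 4490 ± 444 CPM, so the markers go only in part with an epithelial label. Of 6 epithelial markers 5 were lower and 1 higher with LINC01638 siRNA (summed level 5171 to 5618 CPM in control and 3179 to 3708 CPM in LINC01638 siRNA libraries), and of 6 stromal fibroblast markers all 6 were lower (6702 to 8151 and 5323 to 5759 CPM). Of 3 tested immune markers (5 listed) 1 was lower and 2 did not pass; the 5 summed to 46.7 to 53.9 and 34.6 to 35.9 CPM, almost all of it CD14, with CD3E at 0. Of 3 tested endothelial markers (5 listed) 2 were higher, with a median log2 fold change of 0.77: CDH5, from 1.05 ± 0.0879 to 1.78 ± 0.191 CPM, and VWF, from 0.805 ± 0.229 to 1.46 ± 0.402 CPM. KDR was lower (12.3 ± 1.57 and 7.995 ± 1.28 CPM) and made up most of the summed endothelial level, 12.7 to 15.4 CPM in control and 10.5 to 12.5 CPM in LINC01638 siRNA libraries. Some mapped reads overlapped no annotated exon on the exon's own strand, and these can include reads opposite to an exon. They made up 8.32% to 10.1% of mapped reads in control and 12.1% to 15.1% in LINC01638 siRNA libraries. The part of these shifts in the changes of the 10 genes was not tested, and in bulk RNA fewer cells that express a gene cannot be told apart from less of its RNA per cell.

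The 3 phosphatase genes went 3 ways. DUSP6 encodes the cytoplasmic phosphatase that is selective for ERK (ENSG00000139318.8, GRCh38 chromosome 12, 89347232 to 89353271, minus strand). Its level was 10.8, 9.75 and 9.88 CPM with control siRNA and 22.1, 32.9 and 25.9 CPM with LINC01638 siRNA. All LINC01638 siRNA libraries lay above all controls, and they also differed most among themselves of any of the 10 genes, with replicate B highest. The mean rose from 10.2 ± 0.598 to 27.0 ± 5.45 CPM (SD, n = 3 each), or by 1.40 on the log2 scale (SE 0.129, edgeR adjusted p = 3.13e-06).

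DUSP5 encodes an inducible phosphatase that acts on ERK in the nucleus (ENSG00000138166.6, chromosome 10, 110497838 to 110511544, plus strand). It stood at 35.4, 31.0 and 31.6 CPM in the control libraries and at 31.8, 34.1 and 35.4 CPM in the LINC01638 siRNA libraries, so the groups overlapped. The log2 fold change was 0.05, with a 95% interval from -0.09 to 0.18 (edgeR adjusted p = 0.549). The divergent transcript DUSP5-DT, which is transcribed away from DUSP5, stood at 0.954 ± 0.162 and 1.08 ± 0.0684 CPM and did not pass either (edgeR adjusted p = 0.4997).

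DUSP4 encodes a nuclear phosphatase of ERK and related kinases (ENSG00000120875.9, chromosome 8, 29333064 to 29350668, minus strand) and was the gene with the highest CPM of the 10 in control libraries. Its level was 83.9, 86.8 and 88.7 CPM with control siRNA and 60.9, 70.5 and 61.8 CPM with LINC01638 siRNA. Each LINC01638 siRNA library lay below each control library, replicate B being the nearest to them. The mean fell from 86.5 ± 2.42 to 64.4 ± 5.27 CPM, or by 0.43 on the log2 scale (SE 0.0563, edgeR adjusted p = 2.17e-06).

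The Sprouty pair split. SPRY4 encodes an inhibitor of signalling from receptor tyrosine kinases to RAS and RAF (ENSG00000187678.10, chromosome 5, 142310427 to 142326455, minus strand). It stood at 16.3, 17.0 and 17.1 CPM in control libraries and at 30.9, 37.4 and 31.9 CPM in LINC01638 siRNA libraries. The 3 controls lay close together, far below the lowest LINC01638 siRNA library. SPRY4 rose 1.99-fold (log2 fold change 0.99, SE 0.0729, edgeR adjusted p = 7.31e-10). Its antisense neighbour SPRY4-AS1 had 10 to 22 counts in a library and did not pass (log2 fold change -0.64, edgeR adjusted p = 0.182). SPRY2, which encodes a second inhibitor of the same kind (ENSG00000136158.12, chromosome 13, 80335976 to 80340951, minus strand), was at 49.7, 46.6 and 49.9 CPM and at 47.0, 52.1 and 49.4 CPM. The groups overlapped, the log2 fold change was 0.02 with a 95% interval from -0.09 to 0.14 (edgeR adjusted p = 0.771), and its sign turned when control replicate B or LINC01638 siRNA replicate B was left out (-0.01 and -0.02) or reads were counted without regard to strand (-0.03).

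Both Spred genes rose by almost the same factor. SPRED1, whose protein binds neurofibromin (ENSG00000166068.13, chromosome 15, 38252326 to 38357249, plus strand), was at 35.1, 34.7 and 35.3 CPM with control siRNA and at 57.1, 62.4 and 59.9 CPM with LINC01638 siRNA. SPRED2, which encodes a related protein (ENSG00000198369.10, chromosome 2, 65310851 to 65432637, minus strand), was at 58.1, 55.8 and 53.1 CPM and at 95.5, 89.0 and 96.6 CPM. For both genes the gap between the groups was several times the range within either. The log2 fold changes were 0.77 for SPRED1 (SE 0.0534, edgeR adjusted p = 3.19e-10) and 0.75 for SPRED2 (SE 0.0523, edgeR adjusted p = 3.46e-10).

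All 3 ETS factor genes of the PEA3 group rose. ETV5 (ENSG00000244405.8, chromosome 3, 186046308 to 186110318, minus strand) was at 25.1, 24.8 and 27.6 CPM in control and at 60.3, 61.5 and 63.2 CPM in LINC01638 siRNA libraries. The LINC01638 siRNA libraries lay close together and at more than 2 times the highest control, and ETV5 had the lowest p of the 10 genes (log2 fold change 1.25, SE 0.0572, edgeR adjusted p = 1.15e-12). ETV4 (ENSG00000175832.13, chromosome 17, 43527844 to 43579620, minus strand) was at 12.6, 12.3 and 12.6 CPM and at 26.1, 26.6 and 29.5 CPM. It rose 2.19-fold from the narrowest set of controls of the 3 (12.5 ± 0.158 CPM; log2 fold change 1.13, edgeR adjusted p = 6.71e-11). ETV1 (ENSG00000006468.15, chromosome 7, 13891228 to 13991425, minus strand) was at 14.0, 12.7 and 13.4 CPM and at 19.3, 21.6 and 20.6 CPM. Its groups did not overlap either, though its rise was the least of the 7 (log2 fold change 0.61, SE 0.0726, edgeR adjusted p = 4.94e-07). The antisense gene ETV5-AS1 had 0 counts in all 6 libraries, which by counting error alone allows an expected count of up to 3 over the 6 together. Reads on the strand opposite to the gene were few, between 0.211% and 7.11% of the reads on its own strand. The highest such shares were those of SPRY4 (7.11% in control and 2.20% in LINC01638 siRNA libraries) and ETV4 (4.04% and 3.49%), and the other 8 genes had at most 1.38%.

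**Figure D2:**
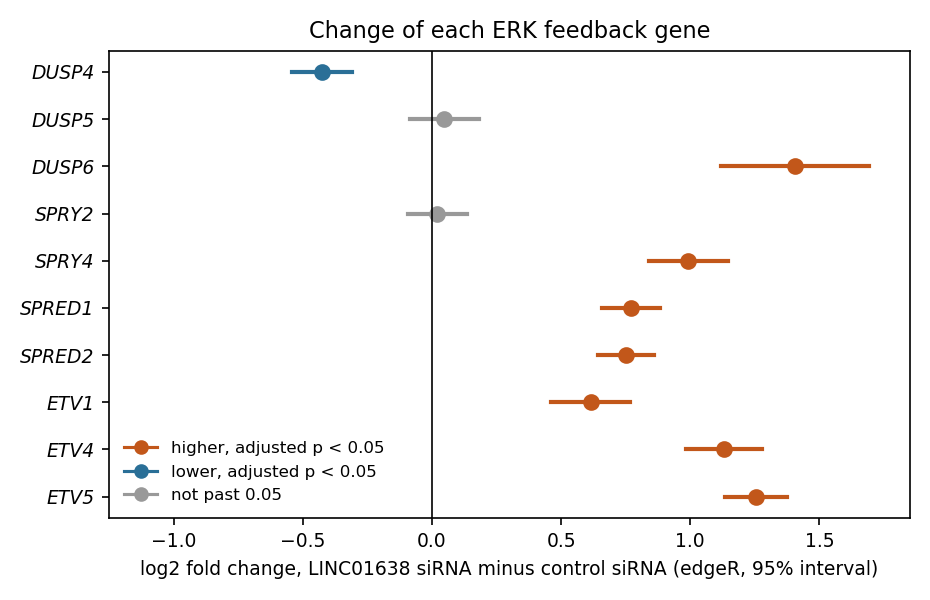
Log2 fold change of each of the 10 genes (LINC01638 siRNA minus control siRNA) on the x axis, with the edgeR estimate as a point and its 95% interval as a line. The 7 genes in orange have intervals wholly above 0, from ETV1 at 0.61 to DUSP6 at 1.40, DUSP4 in blue lies below 0 at -0.43, and the intervals of DUSP5 and SPRY2 in grey span 0.

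Counted by libraries rather than by the fit, 7 of the 10 genes had every LINC01638 siRNA value above every control value and 1 had every value below, where 29.4% and 32.1% of all genes tested did so. The highest LINC01638 siRNA library was replicate B for 6 genes (DUSP4, DUSP6, SPRY2, SPRY4, SPRED1 and ETV1) and replicate C for the other 4, and replicate A for 0. The annotated length of the genes, introns included, ran from 4.98 kb (SPRY2) to 121.8 kb (SPRED2). The 5 genes of at least 50 kb (SPRED1, SPRED2, ETV1, ETV4 and ETV5) all rose, as did 2 of the 5 shorter ones. Among all tested genes with an annotated length 30.3% of those of at least 50 kb were higher and 33.0% lower, against 24.9% and 29.3% of the shorter ones, and the median log2 fold changes were -0.0124 and -0.00417. The split at 50 kb was chosen after the values were seen.

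To set levels of different genes side by side, CPM were divided by the summed exon length of each gene in kb (RPKM). On that scale SPRY2 was the highest of the 10 in control libraries (16.0 ± 0.607 RPKM), followed by DUSP5 (12.5 ± 0.907), DUSP4 (11.9 ± 0.333) and SPRED2 (10.8 ± 0.486). ETV5 (4.45 ± 0.264), SPRED1 (4.24 ± 0.0352), ETV4 (3.47 ± 0.0437), SPRY4 (2.56 ± 0.0670), DUSP6 (2.19 ± 0.129) and ETV1 (1.39 ± 0.0704 RPKM) made up the lower part of the order. In this order DUSP5 and DUSP4 were the only neighbours whose control ranges overlapped. In LINC01638 siRNA libraries SPRED2 came first (18.2 ± 0.792 RPKM), ahead of SPRY2 (16.3 ± 0.834) and DUSP5 (12.9 ± 0.708), and ETV5 (10.6 ± 0.251) stood above DUSP4 (8.88 ± 0.726 RPKM), whereas in control libraries it stood below. ETV4 and SPRED1 (7.60 ± 0.513 and 7.24 ± 0.322 RPKM) overlapped there, as did SPRED1 with DUSP6 (5.82 ± 1.18 RPKM) and DUSP6 with SPRY4 (5.09 ± 0.527 RPKM), and ETV1 stayed last (2.13 ± 0.121 RPKM). All of these levels rest on the union of annotated exons, which may be longer than the transcripts these cells make.

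Summed by family, the PEA3-group genes rose most. ETV1, ETV4 and ETV5 together came to 9.29, 9.02 and 9.63 RPKM with control siRNA and to 19.6, 20.2 and 21.2 RPKM with LINC01638 siRNA, a ratio of means of 2.19. The Spred genes summed to 15.5, 15.03 and 14.6 RPKM and to 25.4, 24.8 and 25.99 RPKM (ratio 1.69), and the Sprouty genes to 18.8, 17.9 and 19.0 RPKM and to 20.2, 22.8 and 21.1 RPKM (ratio 1.15). The groups did not overlap for these 3 families. The summed level of the 3 phosphatase genes was 27.4, 25.9 and 26.5 RPKM in control and 25.3, 29.9 and 27.7 RPKM in LINC01638 siRNA libraries, groups that overlapped (ratio 1.04); the mean of DUSP6 rose from 2.19 to 5.82 RPKM and that of DUSP4 fell from 11.9 to 8.88 RPKM.

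Within families the make-up moved as well. DUSP6 made up 8.24% ± 0.257 of the summed RPKM of the 3 phosphatase genes in control and 20.9% ± 2.52 in LINC01638 siRNA libraries, DUSP4 44.9% ± 2.33 and 32.2% ± 1.21, and DUSP5 46.9% ± 2.07 and 46.9% ± 2.78. SPRY4 made up 13.8% ± 0.635 and 23.8% ± 1.02 of the Sprouty pair. SPRED1 made up 28.2% ± 0.994 and 28.5% ± 1.71 of the Spred pair, and ETV1 went from 14.9% ± 0.670 to 10.5% ± 0.556 of the PEA3 group.

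**Figure D3:**
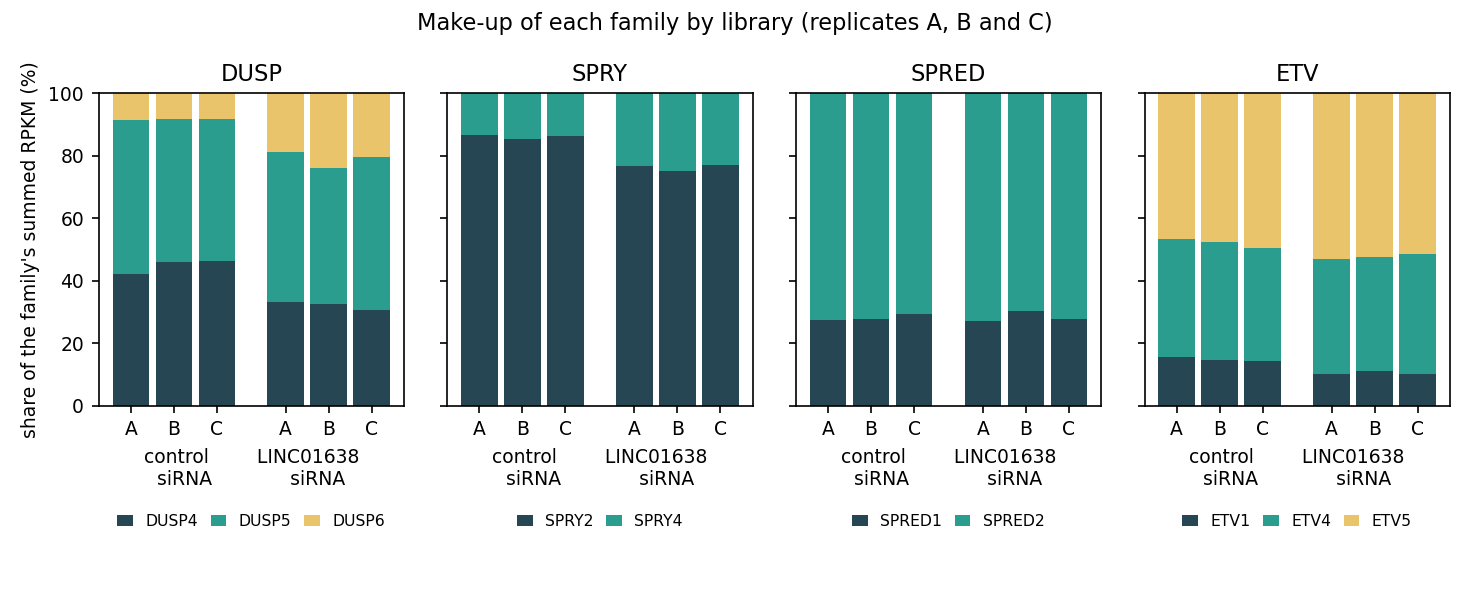
Share of each gene in the summed RPKM of its family (y axis, %), with 1 stacked bar per library, the control siRNA replicates on the left and the LINC01638 siRNA replicates on the right of each panel. The DUSP6 share is 8.06% to 8.54% in control and 18.9% to 23.8% in LINC01638 siRNA libraries, and the SPRED1 share overlaps between the groups.

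Ratios of 2 genes within a library do not depend on how libraries are scaled, and 7 of them were compared by exact two-sided permutation tests, whose smallest possible p with 3 libraries against 3 is 0.1 (0.14 after Benjamini-Hochberg adjustment over the 7). The count of DUSP6 relative to DUSP4 rose by 1.82 on the log2 scale (from -3.09 ± 0.121 to -1.27 ± 0.181), and that of DUSP6 relative to DUSP5 by 1.34. DUSP5 relative to DUSP4 rose by 0.48, SPRY4 relative to SPRY2 by 0.97 (from -1.54 ± 0.0770 to -0.57 ± 0.0806) and ETV5 relative to ETV1 by 0.64. For each of these 5 ratios the groups did not overlap and the exact permutation p was 0.1, the smallest the design allows, so none can pass 0.05. ETV5 relative to ETV4 differed by 0.13 with overlapping groups (exact permutation p = 0.2, adjusted 0.233). SPRED1 relative to SPRED2 differed by 0.02 (from -0.67 ± 0.0706 to -0.65 ± 0.120, exact permutation p = 0.9), and its sign turned when control replicate A or LINC01638 siRNA replicate B was left out.

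The lists of other pathway genes that follow are to be read against all genes tested, of which 26.3% were higher and 29.6% lower. Of 21 genes of the cascade from adaptors to ERK, 7 were higher, 6 lower and 8 did not pass, with a median log2 fold change of 0.05; these shares are near those of all genes, and 11 were higher when libraries were scaled by their totals alone. PTPN11, the phosphatase that couples receptors to RAS, rose from 258 ± 10.0 to 363 ± 4.99 CPM (log2 fold change 0.49). The adaptor gene GAB2 fell from 47.4 ± 1.45 to 25.0 ± 2.15 CPM (-0.93) and MAPK3, an ERK gene, from 87.1 ± 2.51 to 58.6 ± 0.424 CPM (-0.57).

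Of 12 tested genes for RAS GTPase-activating proteins and other inhibitors of the cascade, 6 were higher, 5 lower and 1 did not pass (median 0.06), where 56.0% of all genes passed in either direction. NF1, the gene of neurofibromin, the partner of the Spred proteins, rose from 232 ± 12.6 to 343 ± 21.2 CPM (by 0.57 on the log2 scale, edgeR adjusted p = 4.29e-08). ERRFI1, a feedback inhibitor of the EGF receptor, rose from 51.1 ± 1.54 to 92.4 ± 2.98 CPM (0.86), and PEBP1, which binds RAF, rose too (0.39), whereas RASA3, a RAS inactivator, fell (-0.44). The remaining Sprouty and Spred genes, named after their values were seen, were SPRY1 (7.63 ± 0.188 and 11.5 ± 2.66 CPM, log2 fold change 0.59), and SPRED3 (7.81 ± 0.122 and 9.36 ± 0.728 CPM, 0.26), both higher, and SPRY3, which did not pass the filter on low counts (1 to 13 counts in a library).

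Of the 7 other MAP kinase phosphatase genes, 4 were lower, 1 was higher and 2 did not pass (median -0.25; 29.6% of all genes were lower and 26.3% higher). With library totals alone 3 were higher. DUSP1, an immediate early gene whose product acts on several MAP kinases, fell from 827 ± 37.8 to 396 ± 16.5 CPM (-1.06 on the log2 scale, edgeR adjusted p = 6.85e-12). DUSP2 (-0.62), DUSP10 (-0.53) and DUSP7 (-0.25), the last an ERK phosphatase close to DUSP6, fell as well. The 1 that rose, DUSP8 (0.18), was named after its value was seen and lost its call when replicate C of either group was left out and when reads were counted without regard to strand.

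Of 7 further ETS factor genes that ERK regulates, 4 were lower, 2 higher and 1 did not pass (median -0.20; 29.6% and 26.3% of all genes). ETS1 fell from 187 ± 2.04 to 131 ± 3.73 CPM (log2 fold change -0.51), ELK4, a partner of serum response factor, from 85.3 ± 3.09 to 58.2 ± 5.55 CPM (-0.55), and the ETS repressor gene ERF fell too (-0.35), while ETV3, another ETS repressor gene, rose (0.36). Among 10 genes for CIC, its corepressors and the ubiquitin ligase that degrades PEA3-group proteins, 2 were higher, 3 lower and 5 did not pass (median 0.01; 26.3% and 29.6% of all genes). With library totals alone the balance turned to 4 higher and 1 lower. CIC rose from 241 ± 7.49 to 285 ± 10.3 CPM (0.24, edgeR adjusted p = 3.20e-04). The corepressor genes ATXN1L and ATXN1 moved apart (0.32 and -0.34), and COP1, the substrate-binding ligase gene, fell from 31.5 ± 1.65 to 26.6 ± 1.63 CPM (-0.25), a call that was lost when libraries were scaled by their totals alone (edgeR adjusted p = 0.0613).

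Of 17 tested genes that ERK signalling is also known to induce, 10 were lower, 6 higher and 1 did not pass (median -0.20; 29.6% and 26.3% of all genes). The immediate early genes EGR1 and FOS fell, EGR1 from 730 ± 41.6 to 288 ± 22.3 CPM (log2 fold change -1.34) and FOS from 219 ± 10.1 to 149 ± 11.4 CPM (-0.56), and MYC fell as well (-0.72). SPHK1, the gene of sphingosine kinase, rose from 44.3 ± 3.50 to 72.3 ± 0.347 CPM (0.71). When libraries were scaled by their totals alone, 6 of these 17 were lower, and 7 to 10 were lower when a library was left out. Of 7 tested receptor genes upstream, 6 were lower and 1 did not pass (median -0.38; 29.6% of all genes were lower). When LINC01638 siRNA replicate B was left out, or with library totals alone, 1 was higher. MET fell from 73.0 ± 8.41 to 43.02 ± 1.66 CPM (-0.76), ERBB3 from 18.7 ± 3.05 to 11.04 ± 0.748 CPM (-0.76), ERBB2 from 159 ± 14.9 to 102 ± 2.55 CPM (-0.64) and FGFR3 from 36.6 ± 2.27 to 28.02 ± 0.266 CPM (-0.38). The difference in direction between these lists and the 10 genes was not tested.

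**Figure D4:**
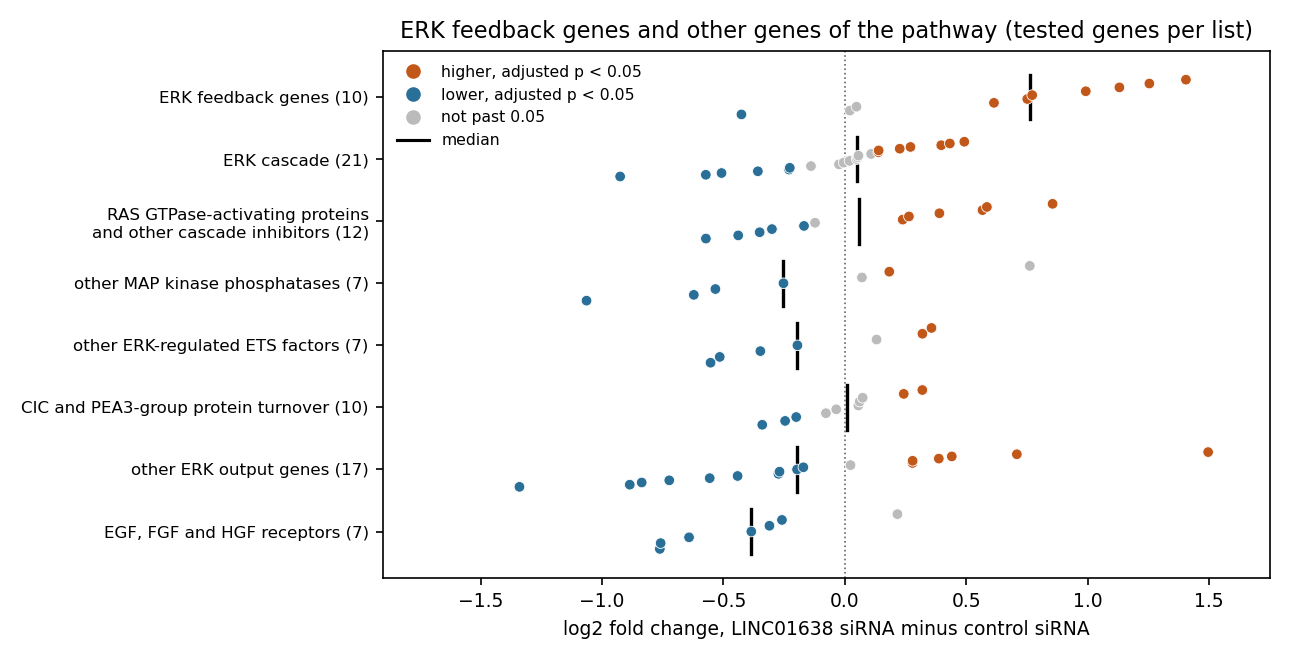
Log2 fold change (LINC01638 siRNA minus control siRNA, x axis) of each tested gene, 1 point per gene, in the 10 ERK feedback genes and in 7 other lists of the pathway (y axis, number of tested genes in brackets). Orange and blue points passed an edgeR adjusted p of 0.05 and black lines are medians, which run from 0.76 for the 10 genes to -0.38 for the receptor genes.

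Genes whose log2 CPM followed the same course over the 6 libraries were taken among 10863 other genes of at least 5 CPM. Those most like ETV5 were PNPLA8 (Pearson's r 0.9996), CNOT4 and GOLM2, and 359 genes had an r above 0.99 with it. Those most like DUSP4 were SERPINE2 (r 0.9988), CSDC2 and the ETS factor gene ELK4, and 63 genes had an r above 0.99. Since the 6 values fall into the 2 siRNA groups, such values mainly record that a gene differs between the groups.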

How the data were processed

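Total RNA of 6 12Z libraries was depleted of ribosomal RNA and made into directional libraries, per the labels' protocols. STAR 2.7.10b and the GRCh38 genome are named in the submitters' processing notes, and the deposited tables have the layout of STAR's gene counts; the annotation release is not given in the sources used here. In the deposited tables counts are whole numbers without normalization, in 3 strand columns; the reverse-strand column was used, as it held most reads. The 4 rows that name no gene were left out. Mapped reads on no exon of the counted strand made up 9.18% ± 0.864 of control and 13.2% ± 1.67 of LINC01638 siRNA reads. They can include reads opposite to an exon. No read is listed as mapping to several places, so close paralogues are counted only where reads are unique. Symbols were assigned by exact identifier to 61918 genes and by identifier less its version to 707. Positions and exon lengths came from GENCODE 29, which the counting may not have used.

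Genes were filtered with filterByExpr (minimum count 10, minimum total 15), scaled by TMM and compared with edgeR 4.0.16 (quasi-likelihood F test, robust, group only) in R 4.3.3. The Benjamini-Hochberg adjustment ran over all 18569 tested genes, and calls were made at 0.05. Fold changes are LINC01638 siRNA minus control. SE was obtained as |log2 fold change| / √F, and errors of levels are SD. DESeq2 1.42.0 and limma 3.58.1 served as alternatives. The fit was tested on simulated data in which only a small part of the genes had known changes. In these data 56.0% of tested genes were called, a condition that the simulation does not cover. The 10 genes and the lists were chosen with earlier results of these data known. Named in the text were the 10 genes, LINC01638, up to 4 genes of each list past the threshold with the lowest p (up to 2 of the highest level where none passed), and for the called gene with the lowest p in each direction the 3 genes with the highest correlation; some genes of the lists are not reported here. Promoter windows are RefSeq's.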

Additional observations from a re-analysis of the deposited data

How the results depend on the processing

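The 7 rises and 1 fall among the 10 genes were called under all 14 alternatives: DESeq2's size factors, library totals alone, limma-voom, DESeq2 with its Wald test, genes unfiltered, a filter of at least 1 CPM in 3 libraries with mean counts of 10 or more, the replicate block, counts without regard to strand, and each of the 6 libraries left out. Leaving out a library moved DUSP6 between 1.23 and 1.53, the widest range of the 10, and DUSP4 between -0.50 and -0.39. Scaling by library totals moved the median of all genes by 0.10 and turned the split of all calls from 4887 higher and 5503 lower to 6349 and 4288; DUSP4 stayed lower (-0.32). The log2 fold change of SPRY2, never called, was -0.0272 without regard to strand and ran from -0.0219 (without LINC01638 siRNA replicate B) to 0.0552 when a library was left out, with -0.0127 without control replicate B. The ratio of SPRED1 to SPRED2 ran from -0.0479 to 0.0668 when a library was left out, and was -0.01 without control replicate A. With library totals the cascade list had 11 higher, the other phosphatases 3 higher, the CIC list 4 higher and 1 lower, the other ERK-induced genes 6 lower and the receptors 1 higher, and COP1 lost its call (-0.14). The other phosphatases had 0 higher without regard to strand and 2 without a filter, and 0 to 1 when a library was left out; the receptors had 0 to 1 higher. Same-lettered libraries did not deviate together (correlations of -0.293, -0.179 and 0.014 for A, B and C over 10864 genes), so the letters were not treated as pairs; with the replicate block 4676 genes were higher and 5286 lower, and of the 10 genes 7 and 1. The cause of these shifts was not tested.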
